A study of Mus musculus with 4 samples.

Results

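The genes described here encode subunits of the transcription factor NF-kappaB (Nfkb1, Nfkb2, Rela and Relb) and its inhibitors and other regulators (Nfkbia, Nfkbie, Nfkbiz, Tnfaip3 and Birc3). Ltbr encodes the lymphotoxin beta receptor, which signals to it. They were chosen by gene symbol, as the probe sets whose annotation names 1 of these 10 genes and no other. This gave 19 probe sets for 9 genes, out of 45037 probe sets and 18193 genes on the array. No probe set was assigned to Nfkb1, which is not analysed here. Where a gene had several probe sets, the brightest over the 4 arrays represents it and the rest are given beside it.

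The arrays hold RNA of podoplanin-selected cells from axillary lymph nodes of female SCID/NOD mice, immunodeficient animals aged 6 to 8 weeks. In the metastatic group the nodes drained subcutaneous tumours of 293-VEGF-D cells, a human embryonic kidney line that overexpresses the lymphatic growth factor VEGF-D, and in the non-metastatic group they drained tumours of 293-Apex cells. Nodes were harvested once tumours measured 1600 to 2500 mm3, after 3 to 4 weeks, and each preparation pooled those of 1 to 5 mice. Each group had 2 biological replicates with 1 array each. All preparations were cultured briefly in EGM-2 MV medium before the selection, so the values describe cells after culture. SCID/NOD mice lack functional B and T lymphocytes, which are a main source of lymphotoxin in normal lymph nodes. The sorting label states depletion of tumour cells and leukocytes before culture for the metastatic preparations and no depletion for the others; the growth protocol makes no such distinction. Metastatic nodes were used only if visibly enlarged. VEGF-D overexpression, node enlargement and the labelled depletion therefore cannot be told apart from metastasis.

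NF-kappaB is held in the cytoplasm by inhibitor proteins of the I-kappaB family until a signal such as tumour necrosis factor or interleukin 1 leads to their phosphorylation and destruction. In this classical route dimers containing RelA enter the nucleus and switch on genes of inflammation and survival, among them genes of the pathway's own inhibitors. A slower, non-canonical route starts at receptors such as the lymphotoxin beta receptor, depends on the kinase NIK and releases dimers of RelB with p52, the product of Nfkb2. In lymph nodes this route drives the differentiation of stromal organizer cells and the production of lymphoid chemokines and adhesion molecules.

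Values are log2 signals after quantile normalization, and differences are metastatic minus non-metastatic with limma's standard error (SE) and 95% interval. A difference was called when its Benjamini-Hochberg adjusted p, computed across the 45037 probe sets, was under 0.05. The 4 arrays correlated at Pearson r = 0.991 to 0.995 with each other. The array of metastatic replicate 2 stood apart in low-oxygen genes: the summed linear signal of 12 such genes was 67129 there and 33351 to 35434 on the other 3 arrays. Leukocyte markers had a summed linear signal of 1647 and 1477 on the metastatic arrays against 2137 and 2031 on the non-metastatic ones, and without Csf1r it was 867 and 863 against 1194 and 957. Of 18 markers 12 had a mean under the median of all probe sets. In difference 12 were below 0 and 6 above, with a median of -0.072. Groups were separate for 4 in the lower and 1 in the higher direction, or 27.8%, against 34.6% of all genes. Csf1r and Lyz2 had the smallest p of the 18 markers, at -0.54 (SE 0.16) and -1.47 (SE 0.44). Ptprc, the common leukocyte antigen, lay between 4.01 and 4.28 on all 4 arrays, under the median of all probe sets (5.95). In the label the cells are an enriched endothelial fraction. Of the blood and pan endothelial markers 9 of 15 had a mean under the median of all probe sets, among them Pecam1 and Cdh5. Of the lymphatic endothelial markers 4 of 12 did, among them the transcription factor gene Prox1 at 3.74 to 4.17, and of the markers of fibroblastic reticular cells, the stromal scaffold cells of lymph nodes, 1 of 13 did. Groups were separate for 3 lower and 3 higher of the 12 lymphatic endothelial markers. Of the 15 blood and pan endothelial ones 2 and 2 were separate, and of the 13 fibroblastic reticular cell markers 3 and 1. Of all genes 17.3% were separate and lower and 17.2% separate and higher. No marker of these lists was called. Those with separate groups included Lyve1 of lymphatic endothelium at -2.76 (SE 0.64) and the endothelial sialomucin gene Emcn at -2.53 (SE 0.29). They also included Pdpn, which encodes the protein used for selection, at 0.51 (SE 0.11), and the lymphatic marker Nrp2 at 0.71 (SE 0.24). The summed linear signal was 7558 and 6380 against 6912 and 9905 for lymphatic markers. That sum was weighted to its brightest gene, Clca3a1, with log2 signals of 12.18 and 11.67 against 12.05 and 12.81. For blood and pan endothelial markers the sum was 1161 and 1181 against 1651 and 1394. For those of fibroblastic reticular cells it was 62790 and 64652 against 62902 and 68024. The cells are therefore called podoplanin-selected cells below. In such bulk samples, fewer cells of a type and less RNA per cell cannot be told apart.

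Of the 9 genes, 7 had lower mean signals in the metastatic group, where 50.1% of all genes did, and the median difference was -0.20 against -0.00030 over all genes. The inhibitors Nfkbia and Nfkbie, the regulators Tnfaip3 and Birc3 and the subunit Relb were lower on both metastatic arrays than on both non-metastatic arrays. No member was higher on both. These 5 of 9 stand against 34.6% of all genes whose groups did not overlap, 17.3% lower and 17.2% higher. The members were chosen with earlier results of these data known, so such counts are a description and no test. None of the differences was called (limma with Benjamini-Hochberg adjustment; smallest adjusted p of a member 0.40); over all 18193 genes 0% were called. At an unadjusted p under 0.05 limma gave 2 members, Tnfaip3 and Birc3, both lower, where it gave 6.70% of all genes, 4.07% lower and 2.63% higher. Metastatic replicate 2 was the lowest of the 4 arrays for 5 of the 9, against 24.6% of all genes. With 2 arrays a group, the smallest two-sided p of an exact permutation test is 0.33.

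**Figure D1:**
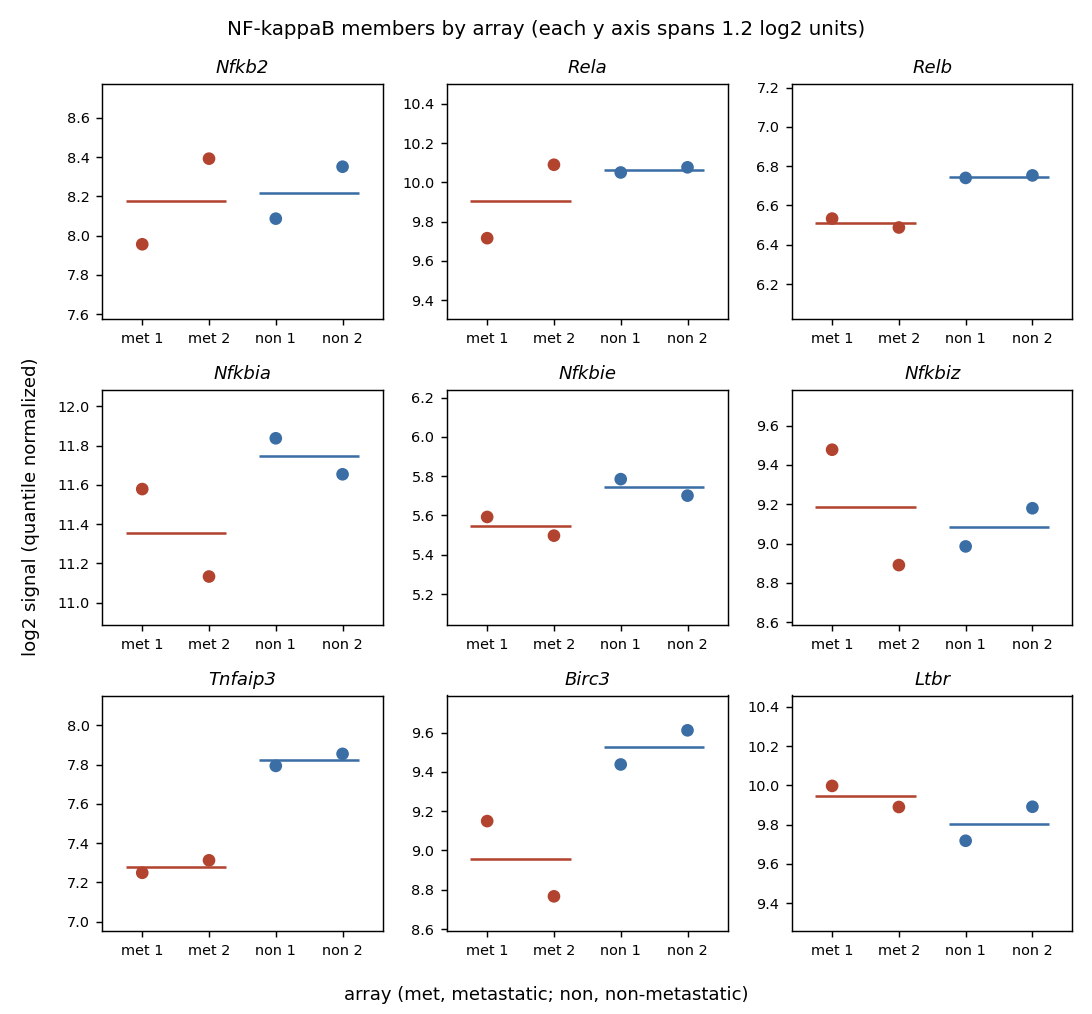
Log2 signal of the representative probe set of each of the 9 measured genes on each array (points; met, metastatic; non, non-metastatic), with group means as lines, n = 2 arrays a group; every panel spans the same 1.2 log2 units. The groups are separate for Relb, Nfkbia, Nfkbie, Tnfaip3 and Birc3, with the metastatic arrays lower, and overlap for Nfkb2, Rela, Nfkbiz and Ltbr.

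Among the subunits, Rela encodes p65, the main activating subunit of the classical route. Its log2 signal was 9.72 and 10.09 on the metastatic arrays and 10.05 and 10.08 on the non-metastatic ones. Metastatic replicate 1 alone was low and metastatic replicate 2 was the highest of all, so the groups overlapped. The difference was -0.16 (SE 0.15, 95% interval -0.54 to 0.22), and it was 0.026 without metastatic replicate 1. Nfkb2 encodes p100, which is processed to p52 and also acts as an inhibitor that retains RelB. Its signal was 7.96 and 8.39 on the metastatic arrays and 8.09 and 8.35 on the non-metastatic ones. Replicates of a group lay farther apart than the group means, which differed by -0.045 (SE 0.18, 95% interval -0.50 to 0.41). The sign turned without metastatic replicate 1 (0.17) or non-metastatic replicate 2 (0.087). On the dimmer probe set of Nfkb2 the difference was -0.13 (SE 0.16), and the groups also overlapped. For Rela and Nfkb2 the intervals include changes in either direction, and they do not show equal expression.

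Relb encodes the partner of p52 in the non-canonical route and is itself a known target of NF-kappaB. Its signal was 6.53 and 6.49 on the metastatic arrays and 6.74 and 6.75 on the non-metastatic ones. The replicates of each group were within 0.05 log2 units of each other and the groups did not overlap. The group means were 6.51 ± 0.03 and 6.75 ± 0.01 (SD, n = 2 each), a difference of -0.24 (SE 0.11, 95% interval -0.50 to 0.027), or 1.18-fold lower signal. Leaving out any single array gave -0.21 to -0.26. Of the subunits measured, Relb was therefore the only member with separate groups, and the difference between its value and that of Rela or Nfkb2 was not tested.

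The inhibitor Nfkbia encodes I-kappaB-alpha, which binds RelA dimers, is degraded on stimulation and is rapidly made anew as an NF-kappaB target. Its representative probe set had 11.58 and 11.13 on the metastatic arrays and 11.84 and 11.65 on the non-metastatic ones. Metastatic replicate 2 was lowest, and metastatic replicate 1 lay just under the lower non-metastatic array. The means were 11.36 ± 0.31 and 11.75 ± 0.13 (SD, n = 2 each), a difference of -0.39 (SE 0.18, 95% interval -0.83 to 0.050), or 1.31-fold lower signal. The groups overlapped when the arrays were centred on their medians instead. All 5 probe sets of Nfkbia had differences below 0, from -0.32 to -0.54, and metastatic replicate 2 was the lowest array in each of the 5. The groups were separate for 3 of them. They overlapped for 1448306_at, on which metastatic replicate 1 (9.36) was above both non-metastatic arrays (9.33 and 9.34), and for 1449731_s_at, on which it was level with non-metastatic replicate 2 (9.36 and 9.35). Without metastatic replicate 2 the difference of the representative probe set was -0.17, and without metastatic replicate 1 it was -0.61. The size of the Nfkbia difference thus depended on the array that also stood apart in low-oxygen genes. The part of that array state in the result was not tested.

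Nfkbie encodes I-kappaB-epsilon, a relative of I-kappaB-alpha. It had 5.59 and 5.50 on the metastatic arrays and 5.79 and 5.70 on the non-metastatic ones. The groups were separate by a narrow margin, with a difference of -0.20 (SE 0.11, 95% interval -0.48 to 0.079). Its mean signal of 5.64 was under the median of all probe sets, the only representative probe set of the 9 of which this was so. The other probe set had 5.42 and 4.96 against 5.47 and 5.02, so that the arrays of replicate 1 were high and those of replicate 2 low in both groups, and the groups overlapped (difference -0.058, SE 0.22). Nfkbiz encodes I-kappaB-zeta, an atypical nuclear member of the family that acts as a coactivator at some inflammatory genes such as that of interleukin 6. It had 9.48 and 8.89 against 8.99 and 9.18, with metastatic replicate 1 the highest array and metastatic replicate 2 the lowest. The difference was 0.10 (SE 0.21, 95% interval -0.42 to 0.63), and it was -0.19 without metastatic replicate 1. The other probe sets of Nfkbiz stood at 0.11 (SE 0.17) and -0.10 (SE 0.27). On the latter, 1457404_at, the order of the metastatic arrays was the opposite, 8.37 and 9.06.

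Tnfaip3 encodes A20, an enzyme that edits ubiquitin chains on signalling proteins and so ends NF-kappaB activation after tumour necrosis factor. Its signal was 7.25 and 7.31 on the metastatic arrays and 7.79 and 7.85 on the non-metastatic ones. Replicates were within 0.07 log2 units in each group, and the groups were well apart. The means were 7.28 ± 0.05 and 7.82 ± 0.04 (SD, n = 2 each), a difference of -0.54 (SE 0.11, 95% interval -0.81 to -0.27), or 1.46-fold lower signal. It was -0.51 to -0.57 with any single array left out, and -0.35 as the mean of both probe sets. The other probe set, 1450829_at, had 6.53 and 6.57 against 6.61 and 6.79. Its groups were also separate, with a smaller difference of -0.15 (SE 0.12).

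Birc3 encodes cIAP2, a ubiquitin ligase of tumour necrosis factor receptor complexes that also helps to keep the kinase NIK at a low level. Its signal was 9.15 and 8.77 on the metastatic arrays and 9.44 and 9.61 on the non-metastatic ones. It had the largest range of the 9 genes over the 4 arrays, 0.85 log2 units. The means were 8.96 ± 0.27 and 9.52 ± 0.12 (SD, n = 2 each), a difference of -0.57 (SE 0.16, 95% interval -0.97 to -0.16), or 1.48-fold lower signal. Without metastatic replicate 2 the difference was -0.38, and without metastatic replicate 1 it was -0.76. As the mean of its probe sets it was -0.31: the other probe set was dim, at 5.15 and 5.07 against 5.24 and 5.10, and its groups overlapped (-0.061, SE 0.12). The neighbouring gene Birc2, which encodes the close relative cIAP1, was lower on the same arrays, with 9.30 and 8.67 against 9.78 and 10.00 and a difference of -0.90 (SE 0.23). Birc2 and Birc3 lie 10336 bases apart on mouse chromosome 9 in GRCm38. Birc2 also encodes a part of the complex that destroys NIK. Its difference was -0.58 without metastatic replicate 2, and in the main fit it was not called either (limma adjusted p = 0.54).

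The genes whose profile over the 4 arrays was closest to that of Birc3, by Euclidean distance of mean-centred log2 values among 18193 genes, were Xist at 0.036, Csf1r at 0.040 and Smoc2 at 0.049. Xist is the RNA of the inactive X chromosome, Csf1r encodes the receptor of macrophage growth factor CSF1, and Smoc2 encodes a matrix protein. With 4 arrays, such likeness is a description of these preparations only. Csf1r is also in the list of leukocyte markers, of which 12 of 18 had differences below 0 and 6 above. Other markers of that list had other profiles. Lyz2 had 6.06 and 6.16 on the metastatic arrays and 8.29 and 6.86 on the non-metastatic ones, and Itgam stood at 0.28 (SE 0.14). The part of leukocytes in the Birc3 result was not tested.

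Ltbr, the lymphotoxin beta receptor, is carried by stromal cells and is needed for lymph nodes to form. It had 10.00 and 9.89 on the metastatic arrays and 9.72 and 9.89 on the non-metastatic ones. Metastatic replicate 2 and non-metastatic replicate 2 were nearly equal, so the groups overlapped. The difference was 0.14 (SE 0.12, 95% interval -0.16 to 0.44), and it stayed above 0 without any single array (0.052 to 0.23). Ltbr and Nfkbiz were the only members with a difference above 0.

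**Figure D2:**
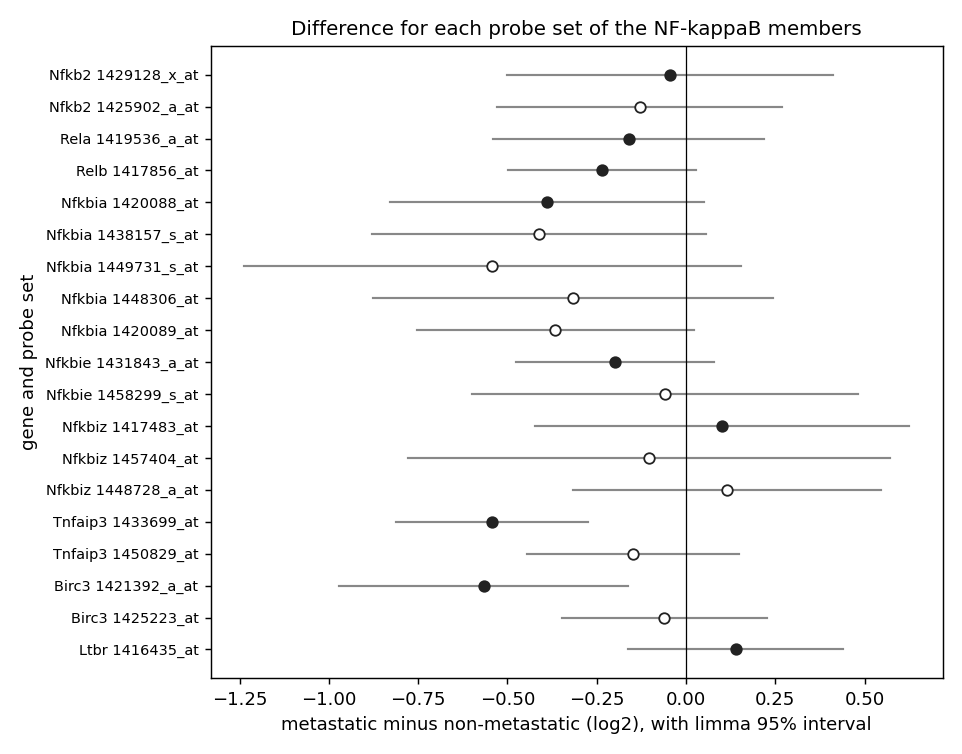
Metastatic minus non-metastatic log2 difference (points) with limma's 95% interval (lines) for all 19 probe sets of the 9 genes; filled points are the representative probe sets. The intervals of Tnfaip3 1433699_at and Birc3 1421392_a_at lie below 0 before any adjustment, and 16 of the 19 differences are below 0, as are 48.2% of those of all probe sets.

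Promoter sequences are shown because Nfkbia, Nfkbie, Tnfaip3 and Birc3 were low on the same arrays and because feedback genes of this pathway are known to carry binding sites of NF-kappaB. The RefSeq promoter table (GRCm38) held 7 of the 10 genes; Nfkb1, Relb and Nfkbiz had no entry. The 250 bases before each start were searched on both strands for the NF-kappaB consensus motif. It was found in 4 of the 7 genes, Nfkb2, Nfkbia, Nfkbie and Tnfaip3, and not in Rela, Birc3 or Ltbr. Of all 32851 windows of this length 3.90% held a match, and 4.46% of genes did in any of their windows. The windows below are given 5′ to 3′ on the gene's strand, with matches in capitals, and those of genes with several starts are the most upstream. Their positions are chr12:55492648-55492897 (minus strand) for Nfkbia, chr10:19015411-19015660 (minus strand) for Tnfaip3, chr17:45555450-45555699 (plus strand) for Nfkbie, chr19:46304487-46304736 (plus strand) for Nfkb2 and chr9:7873171-7873420 (minus strand) for Birc3.
Nfkbia: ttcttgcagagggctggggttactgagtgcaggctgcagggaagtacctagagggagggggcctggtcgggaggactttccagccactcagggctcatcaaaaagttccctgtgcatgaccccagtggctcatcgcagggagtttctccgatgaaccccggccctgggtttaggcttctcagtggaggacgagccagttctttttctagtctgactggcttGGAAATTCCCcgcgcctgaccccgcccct
Tnfaip3: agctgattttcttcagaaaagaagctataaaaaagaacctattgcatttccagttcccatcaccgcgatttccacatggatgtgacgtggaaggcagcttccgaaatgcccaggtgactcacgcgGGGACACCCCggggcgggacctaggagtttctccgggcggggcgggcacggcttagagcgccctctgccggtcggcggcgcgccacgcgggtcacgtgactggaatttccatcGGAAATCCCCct
Nfkbie: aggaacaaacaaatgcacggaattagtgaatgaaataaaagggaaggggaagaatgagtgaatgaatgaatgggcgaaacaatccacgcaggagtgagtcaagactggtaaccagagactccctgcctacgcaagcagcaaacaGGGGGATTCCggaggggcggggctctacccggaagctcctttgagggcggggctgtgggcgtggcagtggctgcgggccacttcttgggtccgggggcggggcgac
Nfkb2: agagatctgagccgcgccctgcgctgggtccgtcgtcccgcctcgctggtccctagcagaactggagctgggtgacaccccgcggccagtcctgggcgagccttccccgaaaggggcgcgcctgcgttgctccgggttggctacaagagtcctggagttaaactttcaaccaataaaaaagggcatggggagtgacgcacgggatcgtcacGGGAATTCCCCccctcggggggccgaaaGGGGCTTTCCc
Birc3: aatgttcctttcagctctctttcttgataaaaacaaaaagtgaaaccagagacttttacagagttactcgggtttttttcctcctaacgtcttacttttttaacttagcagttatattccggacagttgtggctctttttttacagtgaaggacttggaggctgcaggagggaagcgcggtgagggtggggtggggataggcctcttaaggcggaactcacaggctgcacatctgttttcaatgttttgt

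In the Nfkbia window the match GGAAATTCCC, on the opposite strand, starts 29 bases before the transcription start. Tnfaip3 has GGAAATCCCC at 12 bases and GGGACACCCC at 125 bases before the start. Nfkbie has GGGGGATTCC at 106 bases before it. In Nfkb2 the palindrome GGGAATTCCC at 39 bases counts on both strands and overlaps another match 1 base further on, and GGGGCTTTCC lies at 11 bases. Members with a match thus included Nfkb2, whose groups overlapped, and Birc3 without a match had the most negative difference. A match describes the letters of the window and is no measurement of binding, and no match says only that these letters are not in this window.

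The other genes of the pathway were taken in 6 lists, and no gene of any list was called in the main fit. Without metastatic replicate 1 the differences of Cxcl1 and Cxcl13 were -1.53 and -3.08. The metastatic group then held only the array that stood apart in low-oxygen genes. Among ligands that activate the pathway, 6 of 11 differences were below 0 and 5 above, with a median of -0.015; of all genes 50.1% were below 0. Tnf, Lta, Ltb and Il1b, the ligands that start the classical and the lymphotoxin routes, had differences between -0.06 and 0.16. All 4 are chiefly leukocyte products. Of the 11 ligands 8 had a mean under the median of all probe sets, among them Lta, Ltb and Il1b. Small differences of such dim probe sets do not show equal expression. Tnf, Ltb and Il1b, like Il1r1, Ikbkb and Map3k14 below, are named for their roles and not by their p. Il18, a cytokine of the interleukin 1 family, had 8.70 and 8.11 on the metastatic arrays and 7.68 and 6.96 on the non-metastatic ones. Its groups were separate, at a difference of 1.08 (SE 0.29; limma adjusted p = 0.62), the only ligand at an unadjusted p under 0.05. Without non-metastatic replicate 2 the difference was 0.72. Tnfsf13b, which encodes the B cell survival factor BAFF and is a target of the non-canonical route, stood at -0.68 (SE 0.33) with overlapping groups, and leaving out an array gave -1.15 (metastatic replicate 1), -0.21 (metastatic replicate 2) and -0.42 (non-metastatic replicate 1). Its other probe sets were dim and stood at -0.038 and -0.17. Il33, an alarm cytokine of lymph node stroma, stood at -0.27 (SE 0.23), also with overlapping groups. Its value depended on every array: it was -0.48 and -0.064 without metastatic replicates 1 and 2, and -0.54 and -0.0013 without non-metastatic replicates 1 and 2.

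Receptors had 8 of 15 differences below 0, with a median of -0.081. Tnfrsf12a encodes Fn14, the receptor of TWEAK, and had 10.86 and 11.09 against 11.32 and 11.61, a difference of -0.49 (SE 0.15). Its other probe set also stood at -0.49. Tlr2, a receptor for bacterial lipoproteins, had the opposite direction, with 6.75 and 6.47 against 6.32 and 5.89 (0.51, SE 0.19). Leaving out metastatic replicate 1 (0.37) or non-metastatic replicate 2 (0.29) left it no longer under an unadjusted p of 0.05. These were the only receptors at an unadjusted p under 0.05. Tnfrsf1a, the main receptor of tumour necrosis factor, stood at 0.16 (SE 0.11) and Eda2r at -0.21 (SE 0.14; -0.35 and -0.069 without metastatic replicates 1 and 2), while Il1r1 stood at -0.085 (SE 0.18).

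Adaptors and kinases between receptors and NF-kappaB had 17 of 24 differences above 0 and a median of 0.053. Birc2, described above, was the only gene of the list at an unadjusted p under 0.05 and the only one with separate groups in the lower direction, whereas 7 of the 24 had separate groups in the higher direction, against 17.3% lower and 17.2% higher of all genes. The largest of these 7 were Irak2, a kinase of interleukin 1 and Toll-like receptors, at 0.32 (SE 0.19), and Ikbkg, the regulatory subunit NEMO of the I-kappaB kinase, at 0.26 (SE 0.13). All 6 probe sets of Ikbkg had differences above 0, from 0.092 to 0.48. Myd88, the adaptor of those receptors, stood at 0.20 (SE 0.14). All 3 values depended on single arrays: without metastatic replicate 2 Irak2 was 0.064 and Ikbkg 0.14, and without metastatic replicate 1 Irak2 was 0.57 and Myd88 0.055. Myd88 was 0.34 without metastatic replicate 2. The kinase genes Ikbkb and Map3k14, the latter encoding NIK, stood at 0.0088 (SE 0.11) and -0.068 (SE 0.11), both smaller than their SE.

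Among other subunits, inhibitors and brakes, 8 of 17 differences were below 0, with a median of 0.016. Bcl3, an atypical I-kappaB protein that works with p50 and p52 in the nucleus, had 8.21 and 8.17 against 7.78 and 7.83. Replicates were within 0.05 log2 units, and the difference was 0.39 (SE 0.11; limma adjusted p = 0.61). Pdlim2, which promotes degradation of RelA in the nucleus, had 11.22 and 10.91 against 11.43 and 11.52, a difference of -0.41 (SE 0.14) that was -0.25 without metastatic replicate 2. The deubiquitinase gene Cyld stood at -0.25 (SE 0.11), but its 4 probe sets ranged from -0.33 to 0.075. Tnip1, which encodes a partner of A20, stood at -0.19 (SE 0.12), with separate groups, and at -0.30 and -0.084 without metastatic replicates 1 and 2.

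**Figure D3:**
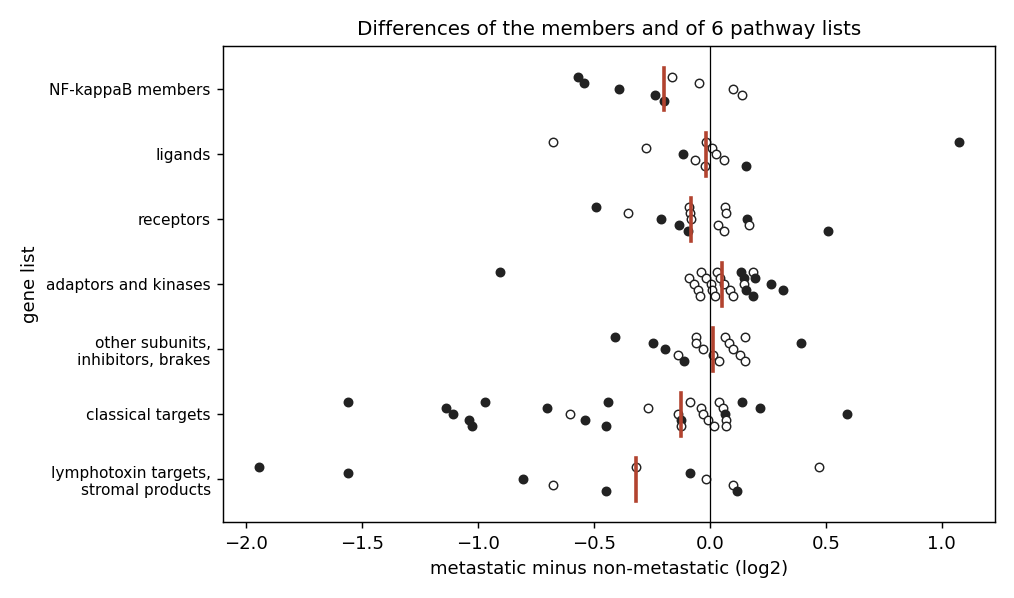
Metastatic minus non-metastatic log2 difference of each gene (points) in the 9 members and 6 pathway lists; filled points are genes whose groups do not overlap, and the vertical bar is the list's median. The medians are -0.20 for the members, -0.12 for classical targets and -0.32 for lymphotoxin targets and stromal products, and between -0.081 and 0.053 for the other 4 lists.

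Classical target genes of NF-kappaB, which encode adhesion molecules, chemokines, cytokines and survival factors, had 19 of 28 differences below 0 and a median of -0.12. Leaving out 1 array moved the median to -0.20 (non-metastatic replicate 1), -0.062 (non-metastatic replicate 2) or -0.19 (metastatic replicate 2). The groups were separate for 11 in the lower and 4 in the higher direction, against 17.3% and 17.2% of all genes, and for 12 and 2 with the deposited values, against 18.5% and 15.0%. At an unadjusted p under 0.05 there were 9, all lower, against 4.07% lower of all genes. Both target lists were chosen with earlier results of these data known, so such counts are a description and no test. The 9 were Cxcl5, Icam1, Cxcl1, Lif, Lcn2, Ptgs2, Il6, Ccl2 and Cflar, of which the last 5 are named after their values were seen. The count of 9 rose without either metastatic array and fell without either non-metastatic one, and so did the count over all probe sets. Icam1, an adhesion molecule for leukocyte integrins, had 7.48 and 7.19 on the metastatic arrays and 9.30 and 8.49 on the non-metastatic ones. Its groups lay more than a log2 unit apart, at a difference of -1.56 (SE 0.27; limma adjusted p = 0.37). Cxcl5, a neutrophil chemokine, had 7.82 and 7.72 against 8.91 and 8.84 (-1.11, SE 0.11; limma adjusted p = 0.17). Cxcl1, another neutrophil chemokine, had 9.81 and 9.02 against 10.55 and 10.56 (-1.14, SE 0.26), and -0.74 without metastatic replicate 2. Its other probe sets stood at -1.38 and -0.31. Lif, a cytokine of the interleukin 6 family, stood at -0.44 (SE 0.12), but its other, dimmer probe set at 0.028.

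Il6 had 8.77 and 9.83 against 10.23 and 10.42, and Ptgs2, the inducible cyclooxygenase, had 7.34 and 8.38 against 8.73 and 9.06. In both, metastatic replicate 1 was the lowest array. In Ccl2, a monocyte chemokine with 11.49 and 10.47 against 12.02 and 11.87, metastatic replicate 2 was. The 9 therefore did not share the order of the metastatic arrays. The other 19 targets measured were not under that threshold. They ranged from Ccl7 at -0.60 (SE 0.32), a monocyte chemokine with overlapping groups, to Tapbp at 0.59 (SE 0.25), which encodes a protein of antigen loading and whose groups were separate. Irf1 stood at 0.22 (SE 0.11), Gadd45b at 0.14 (SE 0.13), Cxcl10 at 0.040 (SE 0.34) and Ccl5 at 0.017 (SE 0.14), while Sod2 stood at -0.13 (SE 0.13). These 7 genes were chosen after their values were seen.

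Targets of the lymphotoxin receptor and products of lymph node stroma had 8 of 11 differences below 0 and a median of -0.32, with separate groups for 5 in the lower and 1 in the higher direction (5 and 0 with the deposited values), against 17.3% and 17.2% of all genes. At an unadjusted p under 0.05 there were 3, all lower, against 4.07% lower of all genes. Icam1 and Vcam1 are in both target lists. Ccl19, Ccl21a and Enpp2 were also listed here but had no value. Of the 11 genes measured 4 had a mean under the median of all probe sets. They included Madcam1 (mean 4.82), whose groups were separate and lower at a difference of -0.086 (SE 0.11). Il7, the survival factor of lymphocytes, had 6.92 and 6.60 against 7.74 and 7.39 (-0.81, SE 0.18). Its other probe set was dim, with overlapping groups (-0.50, SE 0.28). Cxcl13, which attracts B cells to follicles, had 9.84 and 7.58 against 10.48 and 10.83. Metastatic replicate 2 was far below the other arrays, and the difference of -1.95 (SE 0.69) was -0.82 without it. The other probe set of Cxcl13 stood at -1.46 (SE 0.41). Vcam1, an adhesion molecule of stromal organizer cells, had 11.34 and 10.91 against 11.36 and 11.78, with the higher metastatic array just under the lower non-metastatic one (-0.45, SE 0.21). Without metastatic replicate 2 it was -0.23, and without non-metastatic replicate 2 it was -0.24. The other probe sets of Vcam1 stood at -0.33 (SE 0.18) and -0.34 (SE 0.21), and the groups overlapped for the latter. Leaving out metastatic replicate 1 gave a list median of -0.087, and leaving out non-metastatic replicate 1 gave -0.070. As given above, the summed signal of leukocyte markers was lower on the metastatic arrays, but 12 of these 18 markers were under the median of all probe sets. Groups were separate for 27.8% of the 18, against 34.6% of all genes. Lyve1, Emcn and Pdpn had separate groups, but no marker was called. The part of these cell type markers in the differences of the members and of both target lists was not tested.

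**Figure D4:**
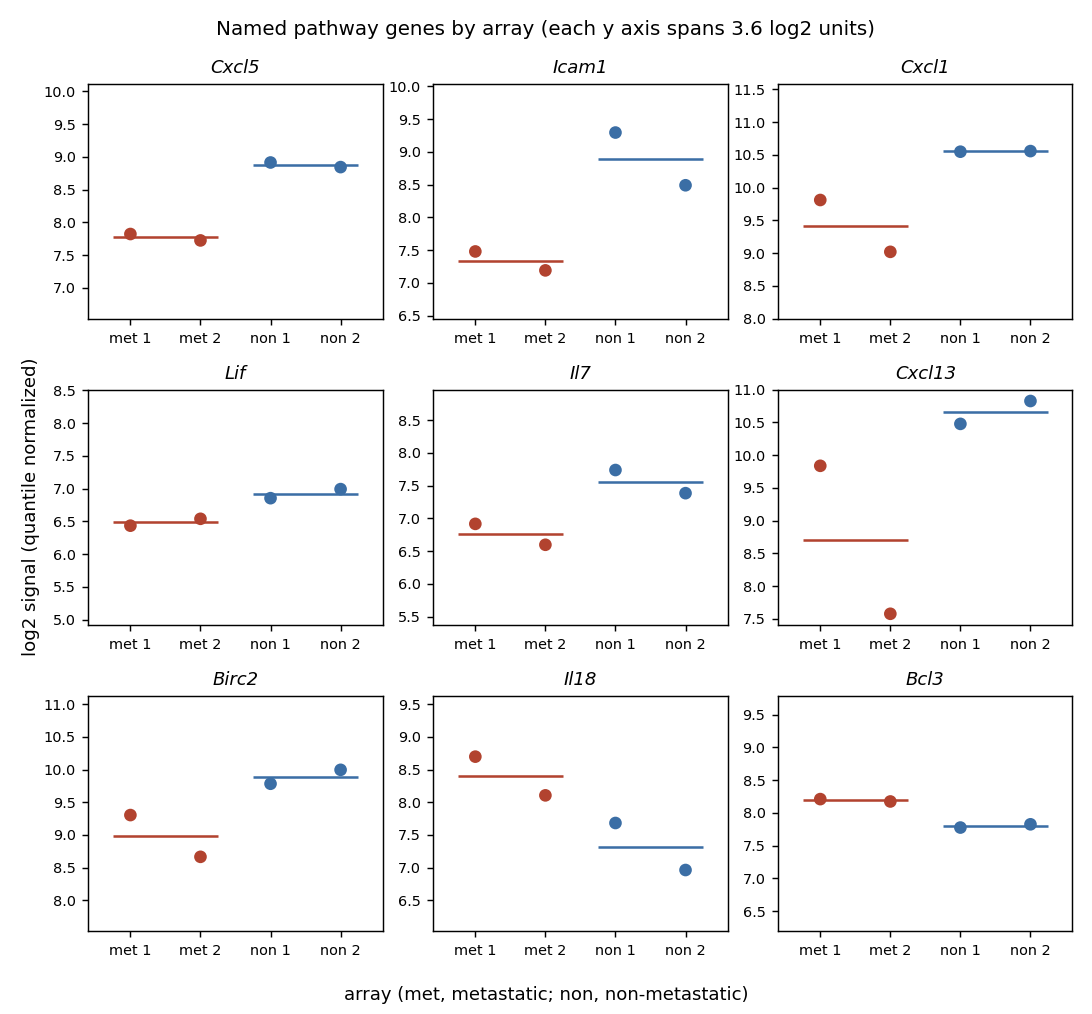
Log2 signal of 9 named pathway genes on each array (points; met, metastatic; non, non-metastatic), with group means as lines, n = 2 arrays a group; every panel spans the same 3.6 log2 units. The metastatic arrays are lower than the non-metastatic ones for Cxcl5, Icam1, Cxcl1, Lif, Il7, Cxcl13 and Birc2 and higher for Il18 and Bcl3.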

How the data were processed

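Gene expression was measured on 4 Affymetrix arrays. Biotin-labelled cRNA was made from 3 ug of total RNA, per the labels' protocols. The authors deposited a log2 signal per probe set; how probes were summarised, and whether arrays were normalized, is not given in the sources used here. Of 45101 probe sets, 64 controls were left out. Array medians differed by 0.116, and the arrays were quantile normalized. The fit used limma 3.58.1 in R 4.3.3 (lmFit, eBayes) without a filter, with 2 residual and 3.71 prior degrees of freedom, and was tested on simulated data. Without detection calls, a dim probe set is not shown to be absent. Precision is limited by the number of arrays. Groups come from sample titles. Probe sets with several symbols (932) or none (9160) were not named; for the others, symbols were updated through Entrez numbers (34741 of 34945). The members and lists were chosen with earlier results of these data known. Of 192 list genes, 178 were measured. Named genes are the members, up to 4 genes with the smallest p of each pathway list, the 3 genes most like Birc3, and marker genes; the text says where others were named. Alternatives were the deposited values, median centring, brighter probe sets, averaged probe sets of a gene, trend with robust moderation, the replicate number as a block, and each array left out. Plots were drawn with Python 3.11.15 and matplotlib 3.10.9.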

Additional observations from a re-analysis of the deposited data

How the results depend on the processing

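The count of members under an unadjusted p of 0.05 was 2 with the deposited values, median centring and brighter probe sets only (8 members). It was 3 with averaged probe sets (Relb in addition) and 3 with trend and robust moderation (Nfkbia in addition). Beside these counts, limma gave 2523 and 2455 of 45037 probe sets with the deposited values and median centring, and 1752 of 22519 brighter ones. It gave 1206 of 18193 genes with averaged probe sets and 2770 of 45037 probe sets with trend and robust moderation. With an array left out, the count over all probe sets rose or fell, so member counts are not compared there. Separate groups were seen for 4 or 5 members under the same settings, and for 5 to 9 with an array left out, where a lone array can hardly overlap; under median centring Rela was among the 5 and Nfkbia was not. The median difference was -0.23 with the deposited values, -0.16 with the mean of probe sets and -0.25 to -0.18 with an array left out. Of 89 recomputed member differences 85 kept their sign. Those that did not were Nfkb2 (0.17), Rela (0.026) and Nfkbiz (-0.19) without metastatic replicate 1, and Nfkb2 (0.087) without non-metastatic replicate 2, and with an array left out they ranged from -0.26 to 0.17 for Nfkb2, -0.35 to 0.026 for Rela and -0.19 to 0.40 for Nfkbiz; the cause was not tested. No member was called under any setting. With a replicate block, which the labels give no basis for, 3 members had an unadjusted p under 0.05, beside 3829 of 45037 probe sets. In that fit 145 probe sets were called, no member among them but Icam1, Cxcl5 and Il18 among the pathway genes named. Replicate differences correlated at 0.25 between the groups over probe sets. The count of classical targets that were lower at an unadjusted p under 0.05 moved with an array left out, and so did that of all probe sets.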
